A study of Mus musculus with 6 samples.

Results

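The genes described here encode the glucose transporters, the isozymes of the rate-controlling steps of glycolysis and the red cell enzyme of 2,3-bisphosphoglycerate synthesis. They are 10 named genes, Slc2a1, Slc2a3, Hk1, Hk2, Hk3, Pfkl, Pfkm, Pfkp, Pkm2 and Bpgm, out of 19436 genes in the table. They were chosen by name, but with earlier results of these data known. RNA was measured in cells sorted out of the livers of E14.5 fetuses, from mice on a C57BL/6 background. The cells were sorted for medium CD71, the transferrin receptor, and absence of Ter119, which appears on later erythroid cells. Erythroid precursor is only the label of this sorted fraction, and it is checked against marker genes below. The 3 libraries of one genotype were -77-/-, which lack on both alleles the -77 enhancer upstream of Gata2, and the 3 libraries of the other were wild type. Gata2 is a GATA factor gene needed by early blood progenitors. The sources used here do not say whether a library came from 1 embryo or from a pool, so the p-values measure only the spread between these libraries.

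Glucose enters blood cells through facilitative transporters of the Slc2a family. Hexokinases trap it as glucose 6-phosphate, phosphofructokinases commit it to glycolysis and pyruvate kinases make the final ATP and pyruvate. Each step has isozymes from separate genes with different regulation, and maturing red cells, which lose their mitochondria, come to depend on glycolysis for ATP. Red cells also divert a glycolytic intermediate through bisphosphoglycerate mutase to 2,3-bisphosphoglycerate, which lowers the oxygen affinity of haemoglobin.

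In -77-/- libraries the set differed from wild type in the balance of isozyme genes. The transcripts of Hk2, Hk3, Pfkp and Pkm2 were higher than in wild type, those of Hk1, Pfkm and Bpgm were lower, and Slc2a1, Slc2a3 and Pfkl did not pass the test. That is 7 of 10 members called, 4 higher and 3 lower, where 32.2% of the 15821 genes tested were called, 16.9% higher and 15.2% lower. More abundant genes were called more often, and all 10 members averaged over 100 normalized reads in the higher genotype. With the filter set at 100, 4908 of 10357 genes were called, and 4 members were higher and 4 lower. All 7 passed the test with a change of at least 2-fold, as 18.7% of tested genes did. The size of the log2 fold change had a median of 1.56 over the 10 members and 0.72 over all tested genes, and the signed medians were -0.16 and 0.10. The genotypes did not overlap in 8 of 10 members, and in 46.5% of tested genes. Calls were made with limma on log2(normalized reads + 1) at a Benjamini-Hochberg adjusted p of 0.05 over all tested genes. All 10 members passed the filter on low values, a mean of at least 10 normalized reads in the higher genotype. Together the 10 genes took 0.152% to 0.165% of all reads in the -77-/- libraries and 0.112% to 0.116% in wild type libraries. Pkm2 weighs heavily in that total, averaging 15592 normalized reads in -77-/- libraries and 4673 in wild type libraries. The summed hexokinases and Bpgm were lower in -77-/-, and the sums of the transporters and of the phosphofructokinases overlapped between genotypes.

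**Figure D1:**
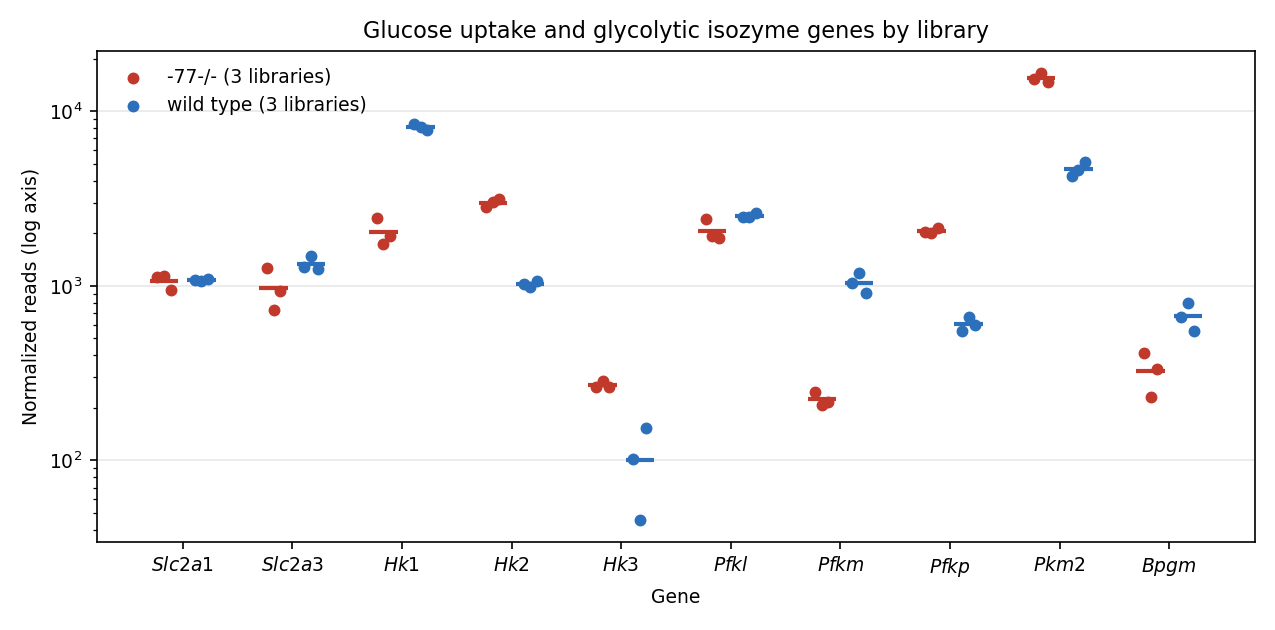
Normalized reads on a log axis of the 10 genes in the 3 -77-/- libraries (left, red) and the 3 wild type libraries (right, blue), with the genotype mean as a bar. The genotypes overlap in Slc2a1 and Slc2a3 and separate in the other 8 genes, with Hk1 and Hk2 on opposite sides.

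Recovered reads came to between 17445889 and 20468899 in -77-/- libraries and between 16516338 and 19840113 in wild type libraries. Gata2 had 26.2 to 74.2 normalized reads in -77-/- libraries and 61.5 to 128 in wild type libraries, and did not pass the test (limma adjusted p = 0.183). Wild type replicate 2 alone expressed Xist, the RNA that silences the X chromosome of females, (41877 normalized reads, the remaining 5 libraries having at most 63.2), and none of the 10 genes lies on the X chromosome. The label of erythroid precursor was checked against marker genes, and in -77-/- libraries the erythroid markers did not bear it out. Of 13 erythroid markers, 11 were lower in -77-/- and none was higher. The erythroid markers summed to 3647 to 8794 normalized reads in -77-/- libraries and 48960 to 52451 in wild type libraries, and all 13 were detected in both genotypes. All 12 monocyte or macrophage markers were higher, with sums of 31122 to 42682 in -77-/- libraries and 1529.7 to 2742 in wild type libraries. Of 12 neutrophil markers, 5 were higher and 4 lower, with sums of 45009 to 48958 in -77-/- libraries and 14418 to 24895 in wild type libraries. Mpo made up most of each sum, at 37033 to 40756 in -77-/- libraries and 8529 to 14749 in wild type libraries. The lower ones were S100a8, S100a9, Camp and Ngp. Of 8 lymphoid markers 6 were higher, with sums of 1859.7 to 3418 in -77-/- libraries and 496 to 810.2 in wild type libraries. Of 7 megakaryocyte or platelet markers 1 was higher and 2 were lower, with sums of 349.97 to 741 in -77-/- libraries and 540.4 to 892 in wild type libraries. Of 7 hepatocyte markers with a row 1 was higher, with sums of 217 to 1254 in -77-/- libraries and 66.9 to 209.7 in wild type libraries, and Apoa2 was at 0 in all wild type libraries. In sorted bulk RNA, fewer cells of a type and less RNA per cell cannot be told apart, and the part of these marker differences in the results that follow was not tested.

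Neither glucose transporter gene passed the test. Slc2a1 (ENSMUSG00000028645), which encodes GLUT1, the basal transporter of most cells, had 1120.5, 1143 and 949 normalized reads in -77-/- replicates 1 to 3, against 1079.9, 1071 and 1102 in wild type replicates 1 to 3. The wild type libraries lay inside the range of the -77-/- libraries, and the log2 fold change was -0.023 (SE 0.14, limma adjusted p = 0.919). Its unadjusted 95% interval ran from -0.33 to 0.29, so a change of 2-fold lies outside it. Slc2a3 (ENSMUSG00000003153), which encodes GLUT3, a transporter of high affinity, had 1259.8, 729 and 938 normalized reads in -77-/- replicates 1 to 3, against 1283, 1477 and 1250.1 in wild type replicates 1 to 3. In -77-/- replicate 1 it stood within the wild type range, and in the other two -77-/- libraries below it. The log2 fold change of Slc2a3 was -0.49 (SE 0.18, limma adjusted p = 0.0564, 0.0110 to 0.250 over the other settings and tools). Without -77-/- replicate 1 it was -0.69 and passed (limma adjusted p = 0.0110). The sum of both transporters averaged 2046 ± 289 normalized reads in -77-/- libraries and 2421 ± 109.9 in wild type libraries (SD, n = 3 here and throughout), with overlap (exact permutation test, two-sided, p = 0.3). Slc2a3 made up 47.2% ± 7.33 of that sum in -77-/- libraries and 55.1% ± 2.52 in wild type libraries (exact permutation test, two-sided, p = 0.1, adjusted p = 0.125). The difference of -7.94 percentage points was -3.81 without -77-/- replicate 2.

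The most read hexokinase gene differed between the genotypes. Hk1 (ENSMUSG00000037012) encodes the broadly expressed hexokinase that is also the main form of red cells, Hk2 (ENSMUSG00000000628) the inducible form of muscle and proliferating cells, and Hk3 (ENSMUSG00000025877) a form of myeloid cells. Since Hk1 and Hk2 moved in opposite directions, the 250 bases before an annotated start site of each are shown, as given by RefSeq for GRCm38.p6, a later build than the mm9 of the expression table. The Hk1 window is chr10:62340422-62340671 on the minus strand, one of 2 windows listed for the gene. The Hk2 window is chr6:82774455-82774704 on the minus strand. Capitals mark matches on either strand to CCACCC, the CACCC box that Klf factors bind, and to GAGGAAG, a sequence bound by PU.1.
Hk1: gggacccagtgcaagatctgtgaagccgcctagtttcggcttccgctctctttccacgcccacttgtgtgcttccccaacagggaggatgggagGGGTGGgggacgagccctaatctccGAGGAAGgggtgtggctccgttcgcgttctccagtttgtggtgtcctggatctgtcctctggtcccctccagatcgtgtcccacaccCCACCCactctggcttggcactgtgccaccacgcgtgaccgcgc
Hk2: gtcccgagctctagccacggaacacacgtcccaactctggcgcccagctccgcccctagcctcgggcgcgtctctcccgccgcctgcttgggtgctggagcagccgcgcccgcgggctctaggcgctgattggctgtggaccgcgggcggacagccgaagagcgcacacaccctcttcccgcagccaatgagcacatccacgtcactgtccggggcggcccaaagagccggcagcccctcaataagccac
The Hk1 window holds CCACCC at 2 places, 156 and 44 bases before the start site, and GAGGAAG at 131 bases before it. The Hk2 window and the other Hk1 window hold none of the motifs searched, which were these, AGATAA for GATA factors, TACGTG for hypoxia-inducible factors and CACGTG for E-box factors. Of all 32851 windows of this length, 28.1% hold CCACCC, 10.6% GAGGAAG, 9.99% AGATAA, 2.72% TACGTG and 6.02% CACGTG. A gene-level table does not say which start site was used.

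Hk1 had 2448, 1741 and 1936 normalized reads in -77-/- replicates 1 to 3, against 8437, 8176 and 7786 in wild type replicates 1 to 3. Every wild type library was above every -77-/- library by more than 3-fold, and the log2 fold change was -2.01 (SE 0.13, limma adjusted p = 1.6e-08). Hk2 had 2822, 3027 and 3151 normalized reads in -77-/- replicates 1 to 3, against 1024, 989.8 and 1067 in wild type replicates 1 to 3. The libraries within each genotype lay close together and the genotypes did not overlap, and the log2 fold change was 1.55 with an SE of 0.12 (limma adjusted p = 1.7e-07). Hk3 was the least abundant hexokinase in read number, at 263, 287 and 262 normalized reads in -77-/- replicates 1 to 3, against 102, 45.9 and 154 in wild type replicates 1 to 3. The -77-/- libraries were even and all above the wild type ones, which were uneven, and the log2 fold change was 1.58 (SE 0.42, limma adjusted p = 0.0088, 0.0016 to 0.0422 over the other settings and tools). At 861 reads in -77-/- and 290 in wild type in all, Hk3 had the widest interval of the 10 members, 0.69 to 2.47 on the log2 scale. The wild type libraries of Hk3, as of Slc2a1, Hk2 and Pfkl, stood in the order of their summed monocyte or macrophage markers. These sums were 2742 in replicate 3, 2041.5 in replicate 1 and 1529.7 in replicate 2. The remaining members did not have this order in wild type libraries, and Slc2a1 and Pfkl were not called higher in -77-/-. Pklr, a red cell gene outside the set that was lower in -77-/-, had this order in wild type libraries too. An order of so few libraries is easily shared, and how many of all genes share it was not counted. The part of those cells in these 4 genes was not tested.

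As shares of the reads of all 3 hexokinase genes, Hk1 made up 44.2%, 34.4% and 36.2% in -77-/- replicates 1 to 3, against 88.2%, 88.8% and 86.4% in wild type replicates 1 to 3. Hk2 made up 51.0%, 59.9% and 58.9% in -77-/- replicates 1 to 3, against 10.7%, 10.7% and 11.8% in wild type replicates 1 to 3. Hk3 made up 5.11% ± 0.492 in -77-/- libraries and 1.09% ± 0.605 in wild type libraries. The exact 95% binomial interval of any of these shares spanned at most 2.68 percentage points, counting error only. Thus the most read hexokinase gene was Hk2 in every -77-/- library and Hk1 in every wild type library. The sum of the 3 genes averaged 5313 ± 241 normalized reads in -77-/- libraries and 9260.3 ± 282 in wild type libraries, without overlap, so the rise of Hk2 in reads was smaller than the loss of Hk1. For each of these shares and for the sum, the exact two-sided permutation test gave p = 0.1, the smallest that 3 against 3 libraries allow, and 0.125 adjusted over the 10 shares and sums tested.

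**Figure D2:**
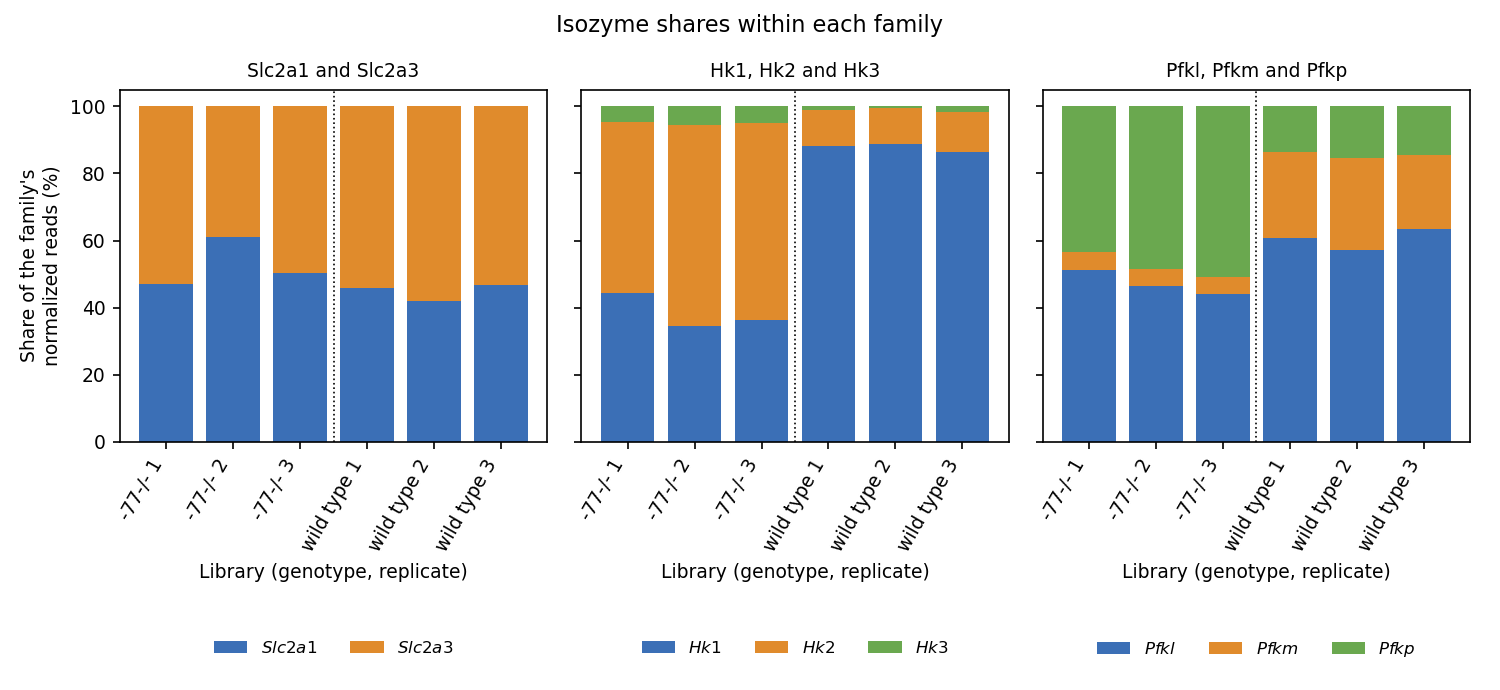
Share in percent of each family's normalized reads taken by each isozyme gene, for the glucose transporters, the hexokinases and the phosphofructokinases, in each -77-/- library (left of the dotted line) and each wild type library. Hk1 makes up 34.4% to 44.2% of hexokinase reads in -77-/- libraries and 86.4% to 88.8% in wild type libraries, and Pfkp makes up 43.4% to 50.7% of phosphofructokinase reads in -77-/- libraries and 13.5% to 15.4% in wild type libraries.

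The phosphofructokinases showed a second shift, between Pfkm, the muscle type, and Pfkp, the platelet type, beside Pfkl, the liver type. The enzyme works as a tetramer of these subunits, and human red cells are known to hold muscle and liver type subunits. The upstream windows of Pfkm and Pfkp are shown because these genes moved in opposite directions, and capitals mark the motifs given for the hexokinases and, in addition, AGATAA, on either strand. The Pfkm window is chr15:98108221-98108470 on the plus strand, one of 4 listed for the gene, and the Pfkp window is chr13:6648772-6649021 on the minus strand, both from RefSeq for GRCm38.p6.
Pfkm: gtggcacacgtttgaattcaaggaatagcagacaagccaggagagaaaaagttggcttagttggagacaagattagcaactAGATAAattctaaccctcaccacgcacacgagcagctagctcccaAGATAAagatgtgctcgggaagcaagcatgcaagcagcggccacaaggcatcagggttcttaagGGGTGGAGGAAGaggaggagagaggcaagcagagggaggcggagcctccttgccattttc
Pfkp: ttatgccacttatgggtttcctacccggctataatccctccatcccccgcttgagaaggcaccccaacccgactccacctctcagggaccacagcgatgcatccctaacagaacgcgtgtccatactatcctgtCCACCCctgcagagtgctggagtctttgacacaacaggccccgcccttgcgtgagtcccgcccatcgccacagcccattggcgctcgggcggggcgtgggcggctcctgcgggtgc
This Pfkm window holds AGATAA at 169 and 124 bases before the start site, CCACCC on the other strand at 60 bases and GAGGAAG at 55 bases, the last pair sharing a base. It holds more matches than any other window of Pfkm. The Pfkm window starting at 98111810 holds CCACCC alone, and the one starting at 98092339 holds no CCACCC. The Pfkp window holds CCACCC at 116 bases before the start site. Of the 14 windows of the 9 members that the promoter table lists, 3 hold AGATAA, all of Pfkm, and 2 of these overlap each other. CCACCC stands in 6 of the 14, GAGGAAG in 5, CACGTG in 1, also of Pfkm, and TACGTG in none. Windows with CCACCC belong to Hk1 and Pfkm, called lower, and to Pfkp and Pkm2, called higher. The Bpgm window holds none of the motifs. A link between the motifs and the direction of change was not tested.

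Pfkm (ENSMUSG00000033065) had 248, 209.01 and 218 normalized reads in -77-/- replicates 1 to 3, against 1045, 1178 and 907 in wild type replicates 1 to 3. The genotypes lay far apart, and its log2 fold change was the lowest of the 10 members, at -2.20 with an SE of 0.20 (limma adjusted p = 7.5e-07). Pfkp (ENSMUSG00000021196) had 2037, 2020.1 and 2159 normalized reads in -77-/- replicates 1 to 3, against 549.8, 665 and 594 in wild type replicates 1 to 3. Its log2 fold change was the highest of the 10 members, at 1.78 with an SE of 0.14 (limma adjusted p = 2.0e-07). Pfkl (ENSMUSG00000020277) had 2408, 1941 and 1878 normalized reads in -77-/- replicates 1 to 3, against 2471, 2469 and 2619.9 in wild type replicates 1 to 3. The -77-/- libraries were all below the wild type ones, replicate 1 only by a small margin, and the log2 fold change was -0.29 (SE 0.13, limma adjusted p = 0.0948, 0.0313 to 0.299 over the other settings and tools). Without -77-/- replicate 1 it was -0.40 and passed (limma adjusted p = 0.0313).

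Pfkp made up 43.4%, 48.4% and 50.7% of phosphofructokinase reads in -77-/- replicates 1 to 3, against 13.5%, 15.4% and 14.4% in wild type replicates 1 to 3. Pfkm made up 5.14% ± 0.139 in -77-/- libraries and 25.0% ± 2.73 in wild type libraries, and Pfkl made up 47.3% ± 3.65 in -77-/- libraries and 60.5% ± 3.17 in wild type libraries. The shares of each gene did not overlap between genotypes (exact permutation test, two-sided, p = 0.1 for each, the smallest possible, adjusted p = 0.125). The exact 95% interval of a single share spanned at most 3.16 percentage points. In contrast to the hexokinases, the sum of the 3 genes overlapped between genotypes, at 4373 ± 280.1 normalized reads in -77-/- libraries and 4166 ± 129 in wild type libraries (exact permutation test, two-sided, p = 0.4). The ratio of Pfkp to Pfkm reads was 8.21 to 9.92 in -77-/- libraries and 0.526 to 0.655 in wild type libraries, a 15.9-fold difference between the means of the log ratios. For Hk2 over Hk1 it was 1.15 to 1.74 in -77-/- libraries and 0.121 to 0.137 in wild type libraries, an 11.7-fold difference. Per kilobase of exon, Hk2 over Hk1 was 0.996 to 1.503 in -77-/- libraries and 0.105 to 0.118 in wild type libraries, so in -77-/- replicate 1 both hexokinases stood at about the same level.

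**Figure D3:**
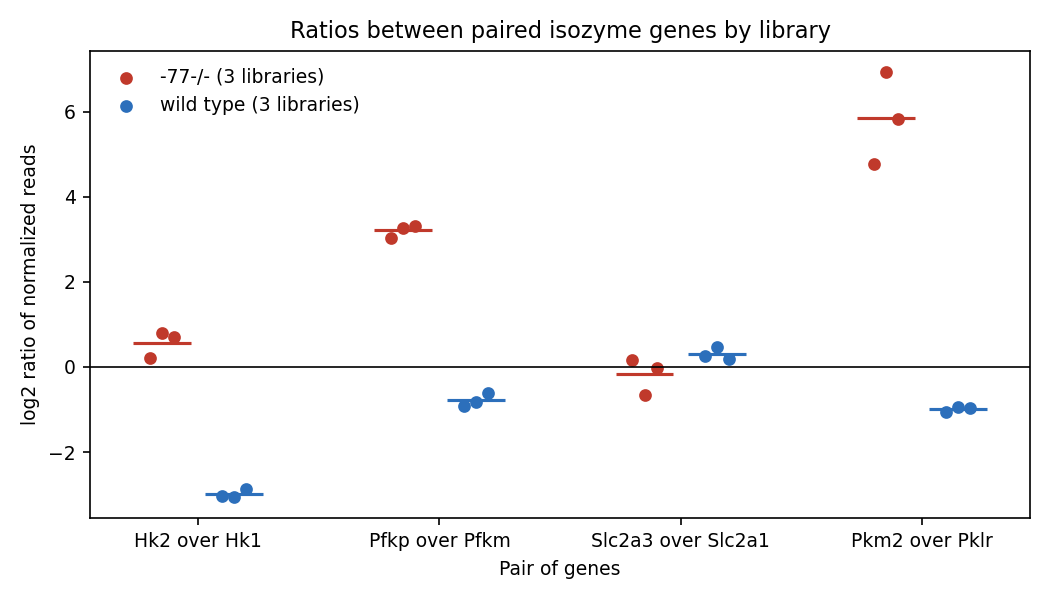
Log2 ratio of normalized reads between paired genes in the 3 -77-/- libraries (left, red) and the 3 wild type libraries (right, blue), with the genotype mean as a bar. The ratios of Hk2 over Hk1, Pfkp over Pfkm and Pkm2 over Pklr are above 0 in all -77-/- libraries and below 0 in all wild type libraries.

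Pkm2 (ENSMUSG00000032294) is the table's name for Pkm, whose transcript is spliced to the M1 or M2 form of pyruvate kinase, and the table gives 1 value for both forms. It had 15378, 16579 and 14820 normalized reads in -77-/- replicates 1 to 3, against 4277, 4589.9 and 5153 in wild type replicates 1 to 3. It was the most read member in every -77-/- library, the genotypes did not overlap, and the log2 fold change was 1.74 (SE 0.10, limma adjusted p = 7.8e-09). Pklr, a gene outside the set that encodes the pyruvate kinase of red cells and liver, had 566, 136 and 261 normalized reads in -77-/- replicates 1 to 3, against 8980.3, 8859.6 and 10087 in wild type replicates 1 to 3. Its log2 fold change was -5.09 (SE 0.57, limma adjusted p = 0.0032). Per kilobase of exon, Pkm2 stood at 31.8 to 143 times Pklr in -77-/- libraries and at 0.558 to 0.607 times Pklr in wild type libraries. The direction of the pair was thus opposite in every library of the 2 genotypes (exact permutation test of the log ratio, two-sided, p = 0.1).

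Bpgm (ENSMUSG00000038871) encodes bisphosphoglycerate mutase, the red cell enzyme that makes 2,3-bisphosphoglycerate. It had 412, 231 and 335 normalized reads in -77-/- replicates 1 to 3, against 663, 796 and 550.4 in wild type replicates 1 to 3. All -77-/- libraries were lower, -77-/- replicate 1 coming nearest to wild type, and the log2 fold change was -1.06 (SE 0.24, limma adjusted p = 0.0036, 0.0012 to 0.0242 over the other settings and tools). Minpp1, a phosphatase that can also act on 2,3-bisphosphoglycerate, averaged 578 ± 151 normalized reads in -77-/- libraries and 2768 ± 110.2 in wild type libraries, a log2 fold change of -2.29 (limma adjusted p = 9.2e-08).

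**Figure D4:**
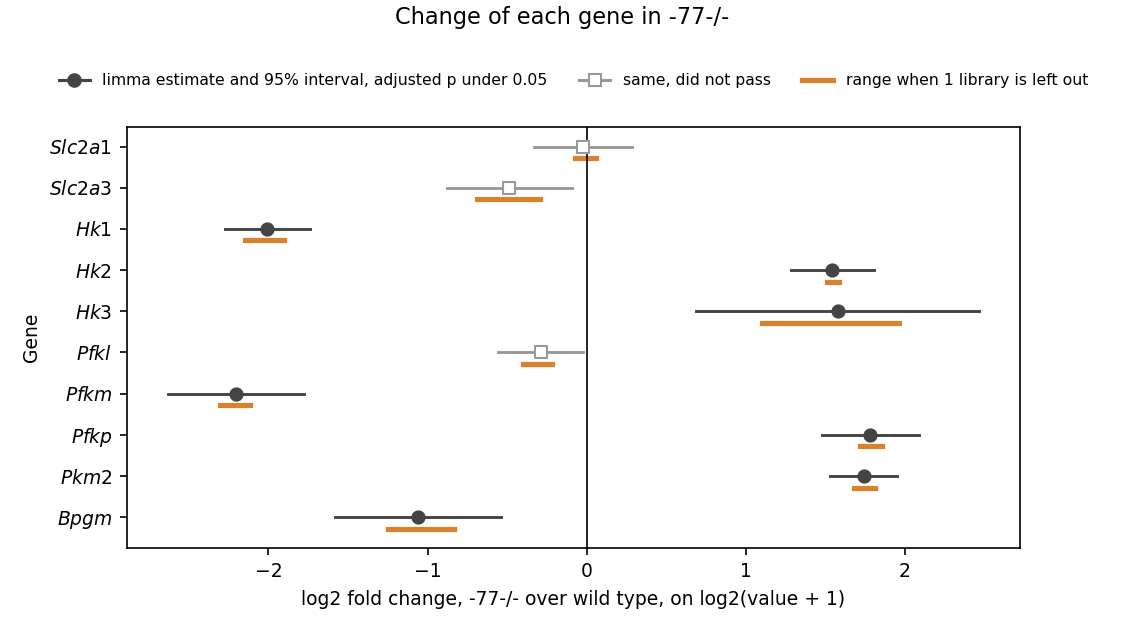
Log2 fold change of each gene, -77-/- over wild type on log2(value + 1), with its unadjusted 95% interval from limma (circle: adjusted p under 0.05, open square: did not pass) and, in orange, the range when 1 library is left out. Hk2, Hk3, Pfkp and Pkm2 lie between 1.55 and 1.78, Hk1 and Pfkm at -2.01 and -2.20, and leaving out a library turns the sign of Slc2a1 alone.

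Within a genotype the members differed in how even their libraries were. In -77-/- libraries the coefficient of variation was 3.67% for Pfkp, 5.55% for Hk2 and 5.77% for Pkm2, against 27.8% for Bpgm, 27.4% for Slc2a3 and 17.9% for Hk1. In wild type libraries it was 1.49% for Slc2a1 and 4.03% for Hk1, and highest for Hk3, at 53.6%. Slc2a3, Hk1, Pfkm and Bpgm stood highest in -77-/- replicate 1 and lowest in replicate 2, while Slc2a1, Hk2, Hk3, Pfkl, Pfkp and Pkm2 did not. The summed erythroid markers had the same order, at 8794, 3647 and 4685 normalized reads in -77-/- replicates 1 to 3, as did Pklr. How many of all tested genes share this order was not counted, and the part of erythroid RNA content in the 4 members that had it was not tested. Without -77-/- replicate 1 the log2 fold change was -2.15 for Hk1, -2.28 for Pfkm and -1.25 for Bpgm.

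To compare levels between genes, normalized reads were divided by exon length. In -77-/- libraries Pkm2 came first at 5999 ± 346 per kilobase, followed by Pfkl at 557 ± 77.5, Hk2 at 534 ± 29.7, Pfkp at 482 ± 17.7, Hk1 at 421 ± 75.3, Slc2a1 at 328 ± 32.7, Slc2a3 at 246 ± 67.5, Bpgm at 147 ± 40.8, Hk3 at 80.7 ± 4.15 and Pfkm at 75.0 ± 6.84. In that order Pkm2 stood above Pfkl, Hk2 above Pfkp, Hk1 above Slc2a1 and Bpgm above Hk3 in every library, and the ranges of the other neighbours overlapped. In wild type libraries Pkm2 at 1798 ± 171 and Hk1 at 1676 ± 67.6 per kilobase led and overlapped, followed by Pfkl at 676 ± 23.2. Pfkm at 348 ± 45.2, Slc2a3 at 338 ± 30.96, Slc2a1 at 333 ± 4.94 and Bpgm at 302 ± 55.4 overlapped as neighbours. Hk2 at 183 ± 6.86, Pfkp at 140.2 ± 13.5 and Hk3 at 30.01 ± 16.1 came last, each apart from the next. Pfkm thus held place 10 of 10 in -77-/- libraries and place 4 in wild type libraries, and Hk2 held place 3 in -77-/- libraries and place 8 in wild type libraries.

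The other genes of glucose metabolism were read from 6 lists with 69 names, of which 65 had a row and 60 passed the filter on low values. Of these 60, 17 were higher, 14 lower and 29 did not pass, or 51.7% called against 32.2% of all tested genes. Among all genes with a mean of at least 100 in the higher genotype, 4908 of 10357 were called. Their median log2 fold change was 0.29, against 0.10 over all tested genes. Of the 31 calls, 22 held in every alternative run.

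Among 14 other enzymes of glycolysis, 6 were higher, 1 was lower and 7 did not pass (median log2 fold change 0.62). The higher ones sit along the chain from glucose 6-phosphate to phosphoenolpyruvate, but not at every step of it. Tpi1, triose phosphate isomerase of the same chain, did not pass (log2 fold change -0.18, limma adjusted p = 0.190). Its -77-/- libraries were all below the wild type ones. Pgam1, phosphoglycerate mutase, averaged 8221 ± 406 normalized reads in -77-/- libraries and 3333 ± 181 in wild type libraries (log2 fold change 1.30, limma adjusted p = 1.2e-07). Eno1, enolase, Pgk1, phosphoglycerate kinase, Aldoa, aldolase A, and Gpi1, glucose phosphate isomerase, rose by 0.69, 0.61, 0.53 and 0.40 on the log2 scale. Aldoc, aldolase C, rose at a low level, at 50.8 ± 48.5 normalized reads in -77-/- libraries and 1.88 ± 3.25 in wild type libraries, and its call was lost when -77-/- replicate 1 was left out (limma adjusted p = 0.0994), with limma-voom (adjusted p = 0.0555) and with edgeR after the filter (0.0539), but not with edgeR without a filter (0.0420). Pklr, given above, was the one that fell. Ldha, lactate dehydrogenase A, had 19613 ± 774 normalized reads in -77-/- libraries and 19313 ± 2706 in wild type libraries and did not pass. Gapdh did not pass either, at 2055 ± 512 in -77-/- libraries and 2346 ± 1614 in wild type libraries. Gapdh, Ldha, Eno1, Pgk1 and Pgam1 have processed pseudogenes in the mouse, so the split of their reads is uncertain.

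Of 7 regulators of phosphofructokinase flux and bisphosphoglycerate tested, 2 were higher, 1 was lower and 4 did not pass. Pfkfb3, which makes the phosphofructokinase activator fructose 2,6-bisphosphate, averaged 905 ± 76.6 normalized reads in -77-/- libraries and 411 ± 11.4 in wild type libraries (log2 fold change 1.13, limma adjusted p = 1.5e-04). Tigar, listed in the table as 9630033F20Rik and known to break that activator down, averaged 363 ± 123 normalized reads in -77-/- libraries and 24.8 ± 15.6 in wild type libraries (log2 fold change 3.94, limma adjusted p = 3.7e-05). The one that fell was Minpp1, given above.

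Of 8 other glucose and lactate carriers tested, 2 were higher, 3 were lower and 3 did not pass. The lower ones encode lactate carriers and their chaperone. Slc16a1, a monocarboxylate transporter, averaged 2890 ± 519 normalized reads in -77-/- libraries and 5168 ± 349 in wild type libraries (log2 fold change -0.85, limma adjusted p = 1.5e-04). Slc16a3, another, averaged 391 ± 85.7 in -77-/- libraries and 1024 ± 47.96 in wild type libraries (log2 fold change -1.41, limma adjusted p = 4.9e-05), and Bsg, the chaperone basigin, had a log2 fold change of -0.61. The higher ones, Slc2a6 and Slc16a7, averaged 29.9 and 128 normalized reads in -77-/- libraries and 2.33 and 33.6 in wild type libraries (limma adjusted p = 0.0318 for each). The call of Slc2a6 was lost in 11 of 14 alternatives, among them every library left out but wild type replicate 2, at an adjusted p of up to 0.146. That of Slc16a7 was lost in 7 of 15, among them -77-/- replicates 2 and 3 and wild type replicates 1 and 2 left out, at up to 0.179.

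In the pentose phosphate pathway, which makes NADPH and ribose from glucose 6-phosphate, 2 of 8 genes were higher, 1 was lower and 5 did not pass. G6pdx, the enzyme of its entry, averaged 3754 ± 118 normalized reads in -77-/- libraries and 2095 ± 312 in wild type libraries (log2 fold change 0.85, limma adjusted p = 7.9e-05). Pgd, the other NADPH-making enzyme, rose by 0.55 on the log2 scale, and Rpia, ribose phosphate isomerase, had a log2 fold change of -0.64. Of 13 genes of pyruvate entry into mitochondria, 6 fell, 1 rose and 6 did not pass. The pyruvate dehydrogenase subunits Dlat, Dld, Pdhb and Pdha1 had log2 fold changes of -0.80, -0.51, -0.39 and -0.31, and the inhibitory kinases Pdk1 and Pdk2 -0.95 and -1.92. Pdp2, the opposing phosphatase, rose by 0.80. Pdha1 lost its call with any library but wild type replicate 1 left out (limma adjusted p of up to 0.112) and with quantile normalization (0.142). Pdhb lost it with any but -77-/- replicate 2 and wild type replicate 3 left out (up to 0.0907) and with quantile normalization (0.0573). Pdk2 lost it without -77-/- replicate 2 or 3 or wild type replicate 1 or 3 (up to 0.110), with limma-voom (0.0563) and with edgeR without a filter (0.0624), and Pdp2 without -77-/- replicate 1 or 3 (up to 0.0576).

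Among 10 regulators of glycolysis, 4 were higher, 2 were lower and 4 did not pass. Hif1a, the hypoxia-inducible activator of glycolytic genes, averaged 2103 ± 315 normalized reads in -77-/- libraries and 1255 ± 130.2 in wild type libraries (log2 fold change 0.74, limma adjusted p = 9.9e-04). Egln3, an oxygen-sensing prolyl hydroxylase, averaged 438 ± 34.7 in -77-/- libraries and 60.1 ± 20.00 in wild type libraries (log2 fold change 2.90, limma adjusted p = 1.6e-05). Hif3a, of the same family as Hif1a, averaged 302 ± 77.2 in -77-/- libraries and 3772 ± 523 in wild type libraries (log2 fold change -3.66, limma adjusted p = 2.6e-09). Myc, a growth factor-induced activator, had a log2 fold change of -0.76. Txnip and Arrdc4, which restrain glucose uptake, rose by 0.64 and 0.93. Txnip lost its call without -77-/- replicate 1 or 2 or wild type replicate 2 or 3 (limma adjusted p of up to 0.0979) and with edgeR after the filter (0.0633). Arrdc4 lost it in 9 of 15 alternatives: without -77-/- replicate 1 or 2 or wild type replicate 1 or 2 (up to 0.223), with quantile normalization (0.115), with no filter (0.0527), with limma-voom (0.0512) and in both edgeR fits (0.0608 and 0.0808).

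**Figure D5:**
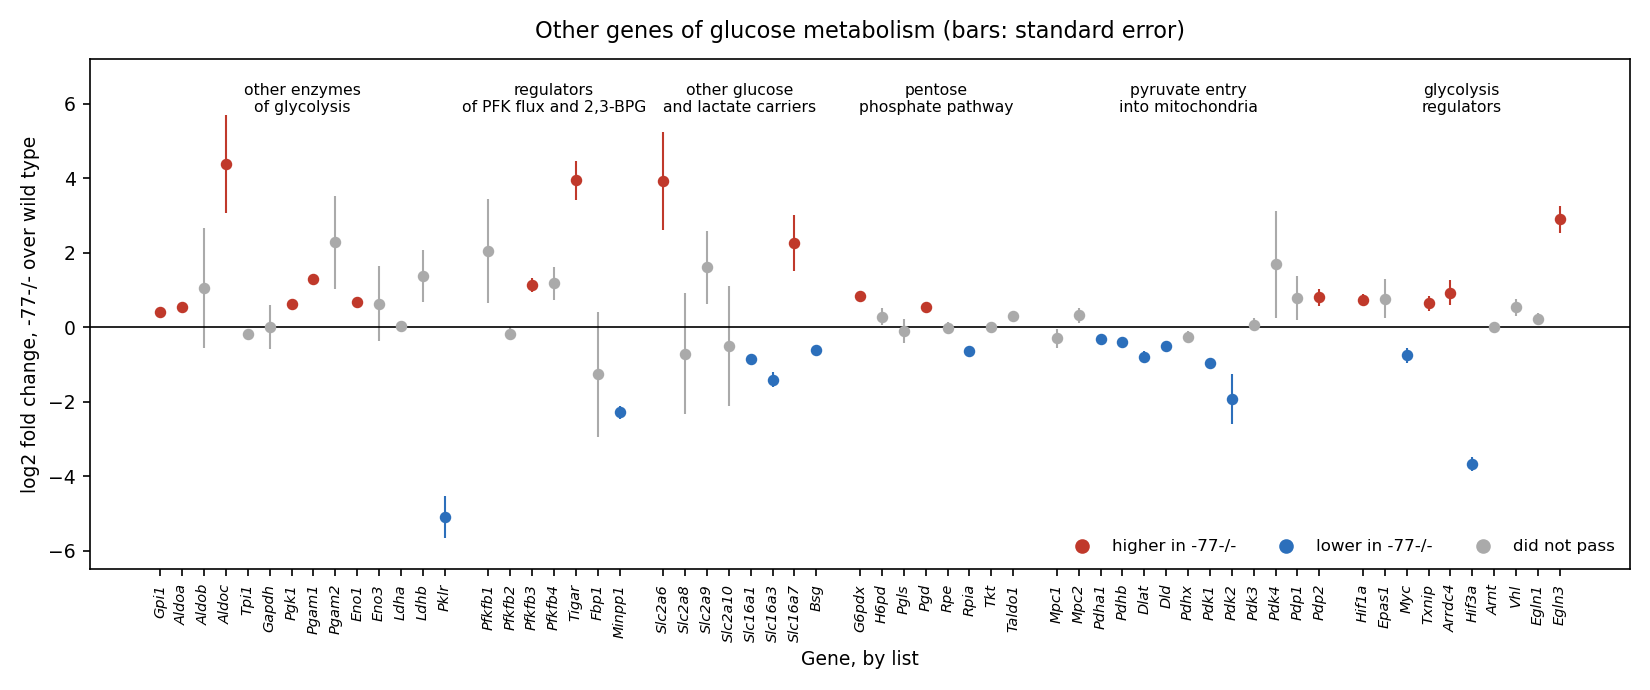
Log2 fold change, -77-/- over wild type, with its standard error, of the 60 tested genes of the 6 lists. Red marks genes higher in -77-/-, blue genes lower and grey those that did not pass, and Pklr at -5.09 is the lowest of all.

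As a description of which genes followed the same pattern, the Pearson correlation with each member was taken over the 6 libraries on the log2 scale, among genes with a mean of at least 100 normalized reads. It is set mainly by the difference between genotypes, and 165 genes reach an r of 0.99 with Hk1 and 236 with Hk2, so it says nothing of shared function. Among the 2 nearest genes to each member were Acp1 and Ldb1 for Hk1, Ifnar1 and Elf4 for Hk2, Ammecr1 for Pfkm, Ndst1 and Glud1 for Pfkp, and Tmem229b and Psap for Pkm2, each with r of at least 0.999. For Hk3 they included Pcnx and Amz1 and for Bpgm C030006K11Rik, with r of 0.996 to 0.997. For Slc2a3 they included Zc3h14 (0.998), for Slc2a1 1200014J11Rik and Gm17451 (0.992 and 0.951) and for Pfkl Uqcrc2 and Osgepl1 (0.994 and 0.988). Ldb1, a partner of Gata1 in erythroid complexes, averaged 995 ± 125 normalized reads in -77-/- libraries and 3048 ± 152 in wild type libraries, and Ifnar1, a type I interferon receptor chain, averaged 1441 ± 55.0 in -77-/- libraries and 518 ± 13.7 in wild type libraries.

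In the authors' deposited table the same 7 members passed an adjusted p of 0.05 with DESeq2 and the same 3 did not. There the log2 fold change was -1.99 for Hk1, 1.55 for Hk2, 1.43 for Hk3, -2.21 for Pfkm, 1.78 for Pfkp, 1.74 for Pkm2 and -1.04 for Bpgm. The authors' deposited table gave Slc2a1, Slc2a3 and Pfkl adjusted p-values of 0.954, 0.0872 and 0.124.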

How the data were processed

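The authors deposited 1 table of 19444 rows with a DESeq2 result and a value per library, and per the submitters' processing notes used Bowtie, STAR 2.5, RSEM 1.2.31 and DESeq2 with mm9. The roles of the aligners, the annotation and the strand setting are not given in the sources used here. Per the labels, 10 ng of RNA went into each NuGEN Ovation library, and per the series' design text reads were single and of 50 nt. The 6 library columns, as the authors deposited them, are a signal: whole reads per gene over a library's size factor (0.878 to 1.17). In each library 100% of values were whole multiples of 1 step, at a tolerance of 0.01 read, and dividing by the step gave the recovered reads used in edgeR 4.0.16, DESeq2 1.42.0 and limma-voom. The authors' log2 fold changes, and their score (the Wald statistic), came with the deposited table, and the score was not used. Of the 19444 rows, 8 had misplaced columns and were dropped.

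Fold changes are -77-/- over wild type from limma 3.58.1 in R 4.3.3, on log2(value + 1) with a mean-variance trend and robust moderation, over 15821 genes with a mean of at least 10 in the higher genotype. The fit was tested on simulated data. Shares and sums were compared with exact two-sided permutation tests. Exon lengths are the union of GENCODE exons on GRCm38, and the promoter table matched 9 of 10 members, Pkm2 as Pkm. Companion genes missing by symbol were matched by Ensembl ID (Tigar, Mpc1, Mpc2). Named companion genes are all called genes of 6 lists, up to 6 in each direction. Likeness names the 2 genes of highest correlation, of which some are not reported here. The binomial intervals of the shares cover counting error only, since reads carry no molecular identifiers, and limma's intervals measure the spread between libraries. Replicate numbers follow record order and pair nothing. The members, lists, motifs and tests were chosen with earlier results of these data known. Alternatives were other pseudocounts, filters, count tools and scaling, and each library left out.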

Additional observations from a re-analysis of the deposited data

How the results depend on the processing

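The calls of Hk1, Hk2, Hk3, Pfkm, Pfkp, Pkm2 and Bpgm held in each of 15 alternatives, with log2 fold changes of -2.15 to -1.89, 1.51 to 1.60, 1.10 to 1.96, -2.30 to -2.11, 1.72 to 1.86, 1.68 to 1.86 and -1.25 to -0.83. Slc2a3 passed with a pseudocount of 10 (log2 fold change -0.48, limma adjusted p = 0.0472), with no filter (-0.49, 0.0462), at a mean of at least 100 (-0.49, 0.0432) and with limma-voom (-0.49, 0.0290), and lay between -0.69 and -0.29 with 1 library left out. Pfkl lay between -0.40 and -0.22 and Slc2a1 between -0.072 and 0.062 (0.062 without -77-/- replicate 3) with 1 library left out. Without -77-/- replicate 1 the number of lower members was 5, and it was 3 to 5 over the libraries left out. The number of higher members was 4 throughout, with 25 to 32 companion genes and 3915 to 5316 genes in all called. The shares and sums kept their direction when 1 library was left out, with a difference of -10.8 to -3.81 percentage points for the share of Slc2a3 and of 46.7 to 308 normalized reads for the sum of the phosphofructokinases. Divided by exon length, the shares changed by -48.3, 42.0 and 6.22 percentage points for Hk1, Hk2 and Hk3, and by -8.29, -23.1 and 31.4 for Pfkl, Pfkm and Pfkp. Quantile normalization gave a median log2 fold change of all genes of -0.07, against 0.10, and moved no member across the threshold. The 6 libraries and, for Hk3 in wild type, 290 reads limit the precision. No paired analysis was possible because the labels give no replicate numbers that groups share.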
